A study of Mus musculus with 6 samples.

Results

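The 9 genes described here, Runx2, Sp7, Alpl, Phex, Ibsp, Spp1, Dmp1, Bglap and Ifitm5, belong to the osteoblast lineage and to the mineralization of bone. They were chosen by name, as the rows of the count matrix whose Ensembl identifier carries one of these symbols in GENCODE M21. All 9 were found among the 55536 genes of the matrix, and all 9 passed the filter on low counts that left 15712 genes for testing. The RNA came from perichondrium, a sheath of connective tissue around cartilage, taken from the limb bones of mice on postnatal day 4. The 3 knockout libraries (mut-596, mut-597 and mut-795) came from Fbn1Scx-/- mice, in which a Cre recombinase under the control of scleraxis, a gene of tendon and ligament cells, removes the fibrillin-1 gene, although the titles write the genotype as ScxCRE for mut-596 and as Koscx for the other two. The 3 wild-type libraries (WT-596, WT-597 and WT-795) came from mice labelled WT, and nothing used here says whether these carried Cre or a floxed allele. The labels give neither sex nor strain, do not say whether animals were pooled, and do not explain the numbers in the titles, so a p-value reflects how far these libraries spread, which may be technical. Where 3 values of a group follow each other, they stand in the order mut-596, mut-597, mut-795 or WT-596, WT-597, WT-795.

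The perichondrium holds progenitors that become osteoblasts, the cells that build the bone collar around growing cartilage. Runx2 and then Sp7 (osterix) are the transcription factors that commit cells to this lineage. Committed cells express alkaline phosphatase (Alpl), which frees phosphate for mineral, then the acidic phosphoproteins of bone matrix, and later osteocalcin (Bglap) and Ifitm5, while Dmp1 and Phex mark the step to osteocytes, the cells enclosed in mineralized bone. Parts of this programme are also used by hypertrophic chondrocytes, and Spp1 is made by macrophages and osteoclasts as well.

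Osteocalcin needs its sequence shown first, because mouse has near-identical copies of the gene side by side on chromosome 3 and reads of one copy can match another. The first 120 coding bases of each copy, from GENCODE M21 on GRCm38, are given 5′ to 3′, with bases that differ from Bglap in capitals.
Bglap (chr3:88383635-88384415, minus strand): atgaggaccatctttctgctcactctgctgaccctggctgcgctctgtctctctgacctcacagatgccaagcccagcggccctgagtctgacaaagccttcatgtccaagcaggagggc
Bglap2 (chr3:88377870-88378650, minus strand): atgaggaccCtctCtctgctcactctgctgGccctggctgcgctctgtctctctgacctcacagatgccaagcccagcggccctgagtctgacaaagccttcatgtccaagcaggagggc
Bglap3 (chr3:88368756-88369536, minus strand): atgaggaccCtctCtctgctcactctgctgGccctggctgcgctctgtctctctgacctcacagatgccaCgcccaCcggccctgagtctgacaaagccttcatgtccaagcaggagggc
Over all 288 coding bases Bglap2 differed from Bglap at 4 positions (98.6% identity) and Bglap3 at 13 (95.5% identity). The longest run of identical bases between Bglap and Bglap2 was 241. Nothing used here says how reads matching several places were counted, so the Bglap value cannot be separated from that of Bglap2.

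Upstream regions of 3 members are shown. Bglap and Ifitm5 passed the test described further on when 1 library was left out, and Spp1 is a matrix gene of another library pattern. The sequences are RefSeq's for GRCm38.p6, read on the gene's strand and ending before the annotated gene body, and capitals mark a RUNX element (ACCACA or TGTGGT, both strands) or a GC box (GGGCGG or CCGCCC, both strands), the motif bound by Sp-family factors.
Bglap (chr3:88384467-88384716, minus strand): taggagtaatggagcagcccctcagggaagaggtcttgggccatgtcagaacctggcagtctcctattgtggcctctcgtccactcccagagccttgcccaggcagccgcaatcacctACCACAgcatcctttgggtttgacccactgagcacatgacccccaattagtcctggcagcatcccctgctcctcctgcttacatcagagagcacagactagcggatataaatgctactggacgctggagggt
Ifitm5 (chr7:140950292-140950493, minus strand): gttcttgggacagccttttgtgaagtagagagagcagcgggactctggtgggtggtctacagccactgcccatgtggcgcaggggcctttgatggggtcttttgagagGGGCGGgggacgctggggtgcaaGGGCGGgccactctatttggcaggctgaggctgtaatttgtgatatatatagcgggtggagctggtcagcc
Spp1 (chr5:104434861-104435110, plus strand): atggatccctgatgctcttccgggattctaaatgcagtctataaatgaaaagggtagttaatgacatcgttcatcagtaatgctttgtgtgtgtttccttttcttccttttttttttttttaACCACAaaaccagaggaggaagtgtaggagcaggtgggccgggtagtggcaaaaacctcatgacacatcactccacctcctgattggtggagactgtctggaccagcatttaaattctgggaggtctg
The Bglap stretch has 1 RUNX element, 132 bases before the start, and the Spp1 stretch 1 at 128 bases. The Ifitm5 stretch has 2 GC boxes and no RUNX element. These boxes lie 142 and 119 bases before the RefSeq start, which is inside the GENCODE gene body and so beyond the end of the stretch printed. RefSeq entries were matched for 8 of the 9 members, with 11 start sites in all, and Sp7 was not matched. A RUNX element lay within 250 bases before 4 of these 11 start sites (1 each of Runx2, Spp1, Dmp1 and Bglap), against 14.0% of 32851 mouse start sites. A GC box lay there at 2 of the 11 (1 of Alpl, where 2 overlapping copies occur, and that of Ifitm5), against 32.7% of all start sites. These are matches of letters and were not tested as binding sites.

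Library totals lay between 7209217 and 10316017 counts. Fbn1 itself had 76, 45 and 69 counts in knockout, against 1255, 898 and 458 in wild type, and it was the 1 gene of 15712 past the threshold of an edgeR adjusted p of 0.05 (0.000103). The groups also differed in transcripts of the sex chromosomes: Xist, made from the inactive X, was at 6221, 4024 and 4 counts in knockout, against 4, 2 and 1 in wild type, and Ddx3y, on the Y, at 0, 0 and 1641 in knockout, against 1199, 842 and 1117 in wild type. The summed level of 12 perichondrium and periosteum markers, none of them at 0, was 8771 to 11340 CPM (counts scaled to library size with TMM factors) in knockout and 7165 to 9691 CPM in wild type. Bulk RNA cannot tell fewer cells of a type from less RNA per cell, and this holds for every value that follows.

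No member passed the edgeR test between knockout and wild type, 0 of 9 against 0.00636% of all genes, nor did any by DESeq2 or limma-voom. At an unadjusted edgeR p under 0.05 there was 1 member (Ifitm5, lower in knockout), against 10.5% of all genes tested and 7.12% lower in knockout. Below 0 lay 7 of 9 members in their log2 fold change of knockout over wild type, against 49.1% of all genes (50.9% lay above 0), and their median over all 9 was -0.16, against 0.011 for all genes. Only Runx2 had groups that did not overlap, 1 of 9 members, against 11.9% of all genes either way, 5.66% higher and 6.22% lower in knockout.

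Per length of exon, the members spanned more than 2 orders of magnitude, and their group means had the same order in knockout and wild type. Levels as RPKM (CPM per kilobase of annotated exon) were 890.5 ± 160 in knockout and 921 ± 92.6 in wild type for Ibsp, and 473 ± 157 in knockout and 530 ± 79.1 in wild type for Spp1 (SD, n = 3 each). Next came Ifitm5 at 35.1 ± 11.9 RPKM in knockout and 73.1 ± 37.7 in wild type, and Bglap at 34.8 ± 11.1 in knockout and 53.1 ± 30.6 in wild type. Alpl followed at 30.7 ± 6.18 RPKM in knockout and 41.0 ± 8.61 in wild type, and Dmp1 at 16.8 ± 7.58 in knockout and 17.2 ± 3.65 in wild type. Runx2 was at 12.3 ± 0.511 RPKM in knockout and 10.4 ± 0.477 in wild type, Sp7 at 6.96 ± 1.07 in knockout and 9.44 ± 2.22 in wild type, and Phex at 3.26 ± 0.943 in knockout and 2.495 ± 0.653 in wild type. Ifitm5, Bglap and Alpl overlapped one another within their SD in each group, as did Runx2 and Sp7 in wild type. In knockout Dmp1 overlapped Ifitm5, Bglap and Runx2 within the SD as well. The order of the means did not hold in every library, as in mut-596 Dmp1 was at 8.07 RPKM and Runx2 at 12.8. The matrix genes Ibsp and Spp1 thus stood far above the transcription factors and the osteocyte genes in this tissue.

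**Figure D1:**
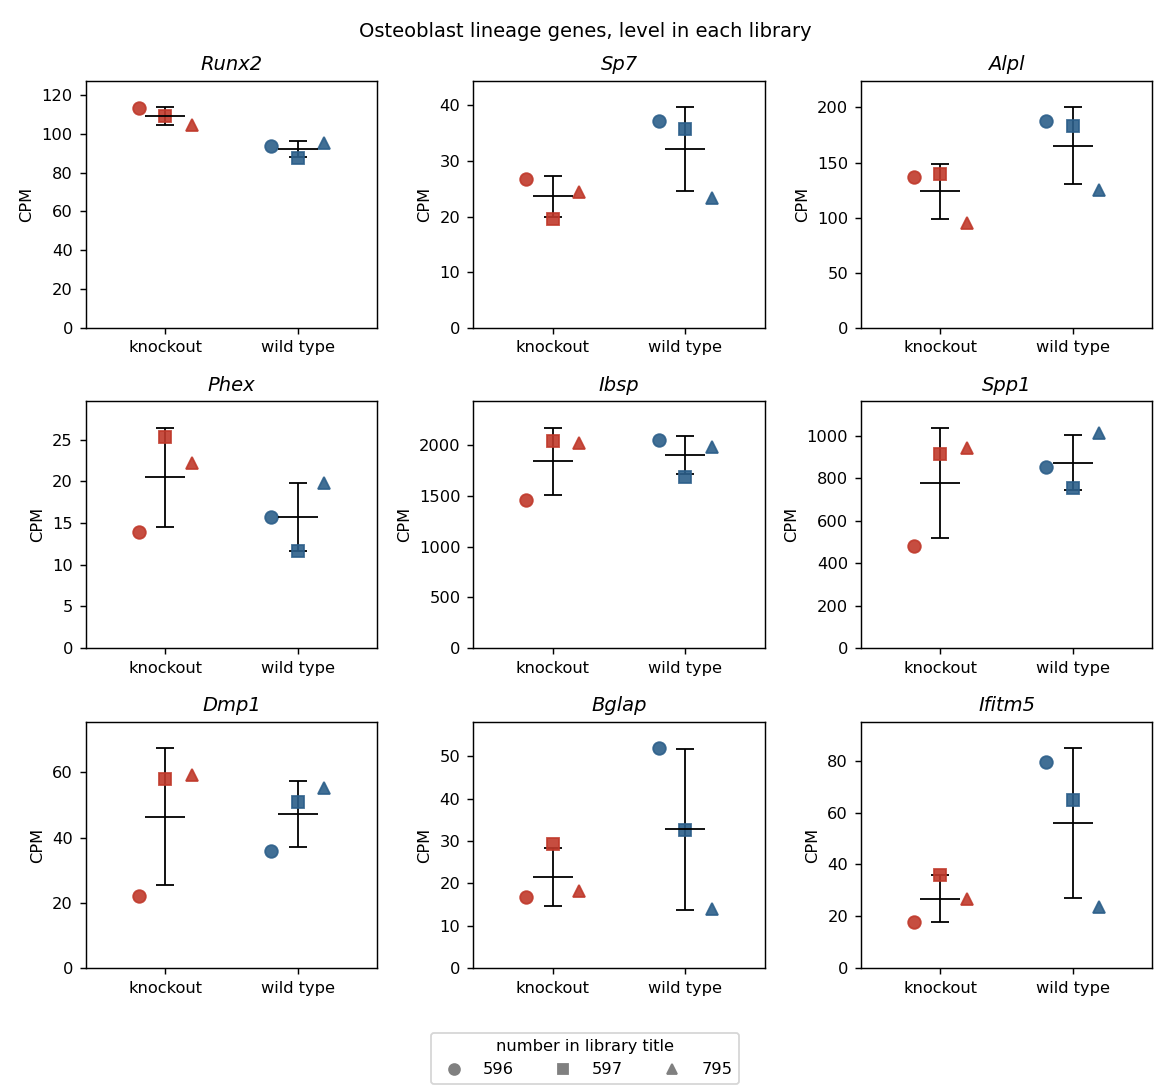
Level of each member in CPM (y axis, from 0, one scale per gene) in the 3 knockout (red, left) and 3 wild-type (blue, right) libraries, with marker shapes for the number in the library title and bars for the mean ± SD. Runx2 has groups that do not overlap, at 104 to 113 CPM in knockout and 87.4 to 95.5 CPM in wild type, while the wild-type triangle (WT-795) lies among the knockout libraries for Ifitm5 and below them for Bglap.

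Runx2, the factor at the start of the lineage, was slightly higher in knockout. It was at 113, 109 and 104 CPM in knockout, against 93.5, 87.4 and 95.5 CPM in wild type. Every knockout library lay above every wild-type library, and the spread within a group was small. Its log2 fold change was 0.24 (SE 0.20, edgeR adjusted p = 0.593). Permuting the labels of the 6 libraries, exact and two-sided, gave p = 0.1, the smallest value that 3 against 3 allow. The gene (ENSMUSG00000039153) lies at chr17:44495987-44814797 on the minus strand. Its value stayed above 0 in all 21 alternatives tried, between 0.18 and 0.37, and passed in none.

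Sp7 acts after Runx2 and is required for osteoblasts to form. It was at 26.8, 19.7 and 24.5 CPM in knockout, against 37.1, 35.7 and 23.4 CPM in wild type. WT-596 and WT-597 stood above all others, and WT-795 lay inside the knockout range. Sp7 had a log2 fold change of -0.44 (SE 0.24, edgeR adjusted p = 0.484). In each library the log2 ratio of Sp7 to Runx2 CPM was -2.07, -2.46 and -2.08 in knockout, against -1.33, -1.29 and -2.02 in wild type. Between libraries gene length cancels in this ratio, but the GC content of the transcripts (54.4% for Sp7, 50.3% for Runx2) does not. WT-795 stood beside the knockout libraries. The groups were apart only by the gap between mut-596 (-2.07) and WT-795 (-2.02), and how often other gene pairs lie apart was not tested. The gene (ENSMUSG00000060284) lies at chr15:102356606-102367182 on the minus strand.

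Alpl encodes the tissue-nonspecific alkaline phosphatase, which hydrolyses pyrophosphate, an inhibitor of mineral formation. It was at 137, 139.9 and 95.3 CPM in knockout, against 187, 183 and 125 CPM in wild type. WT-596 and WT-597 again stood above the rest, and WT-795 lay below mut-596 and mut-597. This gave Alpl a log2 fold change of -0.42 (SE 0.24, edgeR adjusted p = 0.491). The gene (ENSMUSG00000028766) lies at chr4:137741733-137796384 on the minus strand.

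Phex, an endopeptidase-like membrane protein of osteoblasts and osteocytes whose loss causes X-linked hypophosphatemia, was the member with the highest fold change. It was at 13.9, 25.4 and 22.2 CPM in knockout, against 15.7, 11.6 and 19.8 CPM in wild type. Libraries mut-597 and mut-795 lay above all wild-type libraries and mut-596 lay among them. Knockout over wild type gave 0.39 on the log2 scale (SE 0.28, edgeR adjusted p = 0.554). Phex lies on chromosome X (chrX:157162075-157415312, minus strand, ENSMUSG00000057457), and whether the sex difference acts on it was not tested. With a covariate for the Xist libraries, which leaves mut-795 as the knockout library compared, the log2 fold change of Phex was 0.51. Leaving out 1 library at a time gave 0.19 (without WT-597) to 0.58 (without mut-596), with 0.20 without mut-597. Of the pair with Xist, mut-597 was the highest and mut-596 the second lowest of the 6 libraries.

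Ibsp, Spp1 and Dmp1 encode bone sialoprotein, osteopontin and dentin matrix protein, secreted acidic phosphoproteins whose genes lie in one cluster on chromosome 5. Ibsp (ENSMUSG00000029306, chr5:104299171-104311469, plus strand), which binds collagen and nucleates mineral, was at 1460, 2046 and 2018 CPM in knockout, against 2048, 1687 and 1978 CPM in wild type. Apart from mut-596, the knockout libraries lay within the wild-type range. Ibsp had a log2 fold change of -0.048 (SE 0.26, edgeR adjusted p = 0.941).

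Spp1 (ENSMUSG00000029304, chr5:104435118-104441050, plus strand), which restrains crystal growth and binds integrins, was at 481, 916 and 940.3 CPM in knockout, against 855, 753 and 1012 CPM in wild type. The other knockout libraries lay among the wild types, with mut-596 below all of them. Spp1 had a log2 fold change of -0.16 (SE 0.28, edgeR adjusted p = 0.800). Dmp1 (ENSMUSG00000029307, chr5:104202613-104214102, plus strand), which directs mineral deposition around osteocytes, was at 22.3, 58.0 and 59.2 CPM in knockout, against 36.0, 51.1 and 55.2 CPM in wild type. Its 2 highest libraries were knockout and so was its lowest. Dmp1 had a log2 fold change of -0.025 (SE 0.32, edgeR adjusted p = 0.977). Without mut-596 all 3 genes of the cluster lay above 0, at 0.073, 0.069 and 0.29 for Ibsp, Spp1 and Dmp1, and none passed (edgeR adjusted p = 0.963, 0.964 and 0.852).

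Bglap encodes osteocalcin, the vitamin K-dependent protein of mature osteoblasts. It was at 16.9, 29.4 and 18.2 CPM in knockout, against 51.9, 32.6 and 14.0 CPM in wild type. The wild-type libraries held both the highest and the lowest value. The log2 fold change was -0.62 (SE 0.37, edgeR adjusted p = 0.500), and the gene (ENSMUSG00000074483) lies at chr3:88383501-88384464 on the minus strand. Over all libraries Bglap had 1493 counts, Bglap2 1431 and Bglap3 192, and the pair of near-identical copies carried similar counts in each library. With the 3 copies summed as 1 gene, the level averaged 44.3 ± 13.7 CPM over the knockout libraries and 69.0 ± 37.1 CPM over the wild-type ones (SD, n = 3 each), at a log2 fold change of -0.65 (SE 0.35, edgeR adjusted p = 0.484).

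Ifitm5, an osteoblast membrane protein mutated in human osteogenesis imperfecta type V, had the lowest fold change of the members. It was at 17.8, 36.0 and 26.6 CPM in knockout, against 79.4, 64.6 and 23.7 CPM in wild type. WT-596 and WT-597 lay well above the knockout libraries, and WT-795 was the second lowest of all 6. It averaged 26.8 ± 9.09 CPM over the knockout libraries and 55.9 ± 28.9 CPM over the wild-type ones (SD, n = 3 each), a 2.09-fold lower level in knockout. The log2 fold change was -1.07 (SE 0.37, unadjusted p = 0.0113, edgeR adjusted p = 0.459), and the exact two-sided permutation p was 0.3. By unadjusted p the gene (ENSMUSG00000025489, chr7:140948958-140950291, minus strand) ranked 341 of 15712. It was the 1 member listed in the authors' deposited table of 1643 genes, at a log2 fold change of -1.08, and the other 8 were not listed. Among the 1271 genes of the authors' deposited table whose fold change a DESeq2 fit matched, the highest unadjusted p was 0.05, a level that 10.5% of all genes reached by edgeR, so the listing is not read here as a call at an adjusted threshold.

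The members did not move as a block across libraries. Sp7, Alpl, Bglap and Ifitm5 were high in WT-596 and WT-597 and lower in WT-795, while Ibsp, Spp1, Dmp1 and Phex lay above their 6-library mean in WT-795. Library mut-596 was lowest or second lowest for Ibsp, Spp1, Dmp1 and Phex, and for Bglap and Ifitm5 as well. Within each library the log2 ratio of Ifitm5 to Ibsp CPM was -6.34, -5.82 and -6.23 in knockout, against -4.68, -4.70 and -6.37 in wild type. WT-795 thus had the lowest ratio of all. These groupings were made after the values were seen and carry no test.

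**Figure D2:**
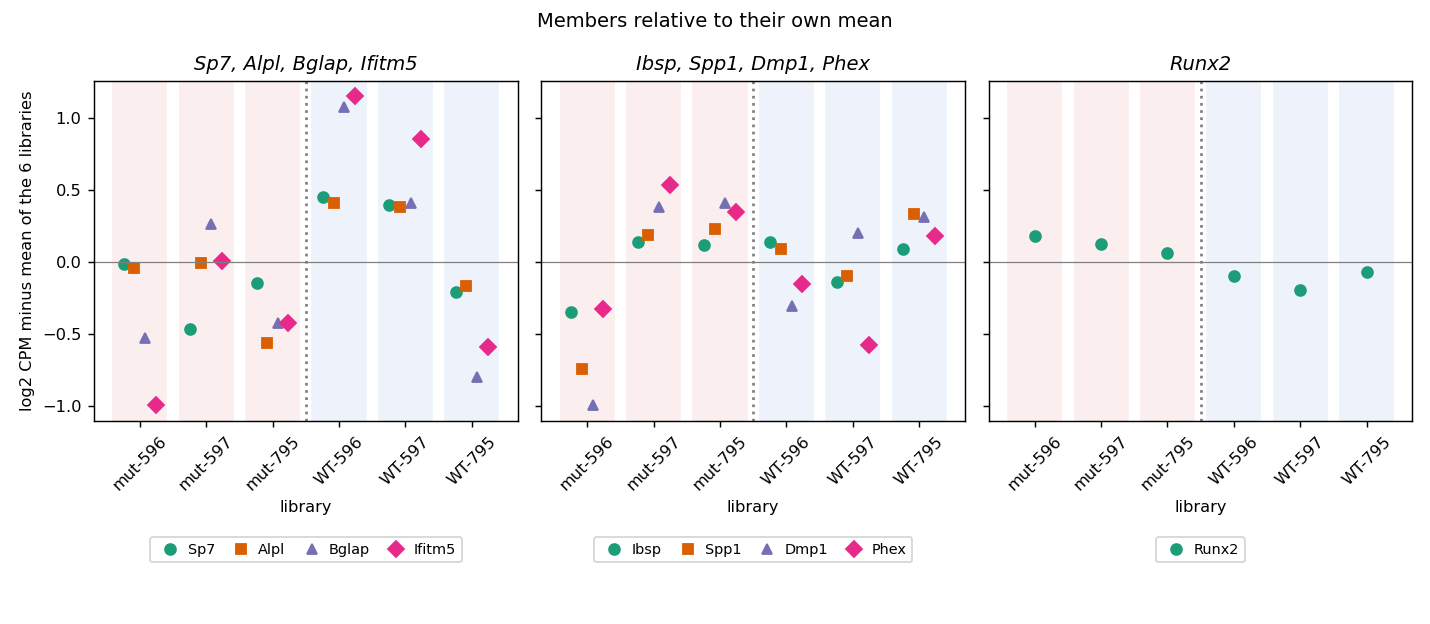
Log2 CPM of each member minus its mean over the 6 libraries (y axis), by library (x axis, knockout left of the dotted line on red, wild type right on blue). In the left panel Ifitm5 stands at 1.15 in WT-596 and -0.59 in WT-795, in the middle panel Dmp1 stands at -0.99 in mut-596, and Runx2 varies least.

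With WT-795 left out, 2 of the 9 members passed, both lower in knockout, against 5.73% of 16702 genes lower, 3.35% higher and 9.08% either way. These were Ifitm5, at a log2 fold change of -1.45 (edgeR adjusted p = 0.00958), and Bglap, at -1.005 (edgeR adjusted p = 0.0359). Sp7 and Alpl were at -0.64 and -0.60 and did not pass (edgeR adjusted p = 0.0739 and 0.0881). Leaving out that library also raised the count over all genes to 1517, against 1 with every library. With any other library left out, no member passed. With no filter on low counts Ifitm5 passed with all 6 libraries (edgeR adjusted p = 0.00509, log2 fold change -1.09), the 1 member of 9 to do so, against 0.742% of 31958 genes lower in knockout and 0.845% in either direction. With a filter of at least 1 CPM in at least 3 libraries, which kept 16216 genes and so was looser than the one used, 0.00617% of genes passed, without mut-596 0.00603%, without mut-597 0.00602%, without mut-795 0.0741%, without WT-596 0.00625%, without WT-597 0.00626%, with the Bglap copies summed 0.00637% and with the GC correction and a replicate block 0.0255%, with no member among them.

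The members' fold changes ran broadly with the GC content of their transcripts, as those of all genes did. Phex, at 39.6% GC the member with the least, had the highest fold change, and Sp7, Bglap, Ifitm5 and Alpl, at 54.4%, 55.7%, 55.9% and 56.5%, had the 4 lowest. Spp1, Ibsp, Runx2 and Dmp1 lay between them at 43.3%, 45.2%, 50.3% and 50.6%. Over the 15701 genes with a known GC content, Spearman's rho between GC content and log2 fold change was -0.619, across genes of the same 6 libraries, which are not independent replicates. In the fifth of genes with the highest GC content, from 55.0%, the median log2 CPM relative to the mean of the libraries was -0.30, -0.032 and -0.18 in knockout, against 0.30, 0.37 and -0.12 in wild type. WT-795 lay with the knockout libraries in this measure too.

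**Figure D3:**
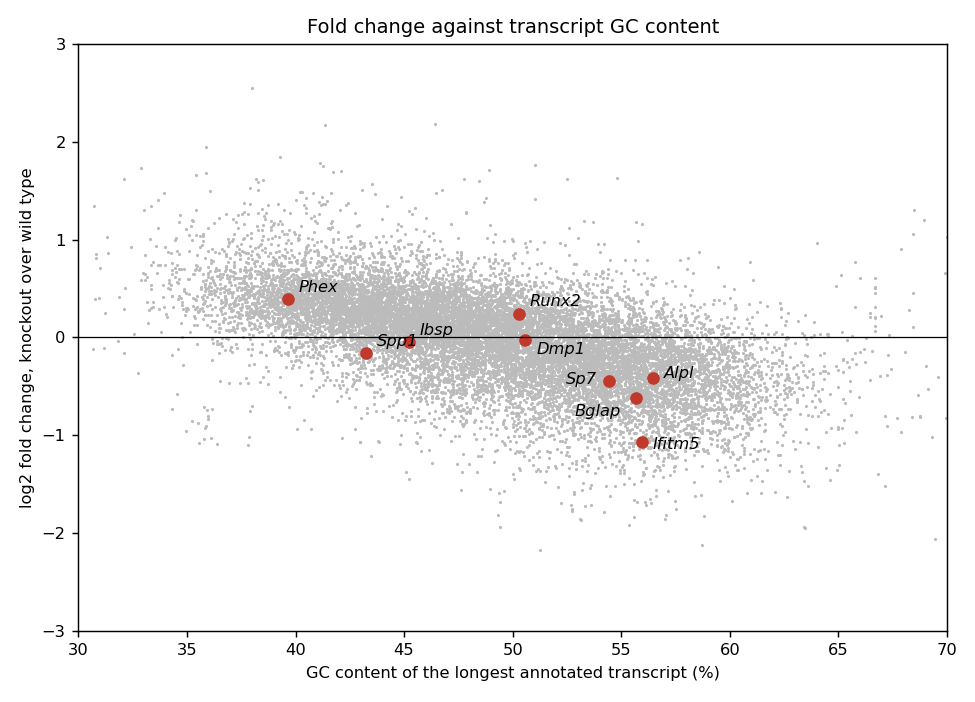
Log2 fold change of knockout over wild type (y axis) against the GC content of the longest annotated transcript in percent (x axis) for the genes tested (grey) and the 9 members (red), with genes beyond the axes not drawn. The cloud slopes down (rho = -0.619), and Sp7, Alpl, Bglap and Ifitm5 sit at its GC-rich, lower end.

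After a correction that removed the trend with GC content from each library, Ifitm5 was at -0.68 (SE 0.30, edgeR adjusted p = 0.768), Bglap at -0.25, Sp7 at -0.13, Alpl at -0.037 and Phex at 0.044. Runx2 was at 0.30 (SE 0.18), Spp1 at -0.40 (SE 0.26), Ibsp at -0.21 and Dmp1 at 0.041, and the median of the 9 was -0.14. No member passed, against 0.00636% of all genes. The correction also takes away any difference between groups that itself runs with GC content. With the correction and without WT-795 together, a setting chosen after the data were seen, Ifitm5 was at -0.97 and missed the threshold (edgeR adjusted p = 0.0644), as did the other 8 members, against 0.629% of all genes.

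**Figure D4:**
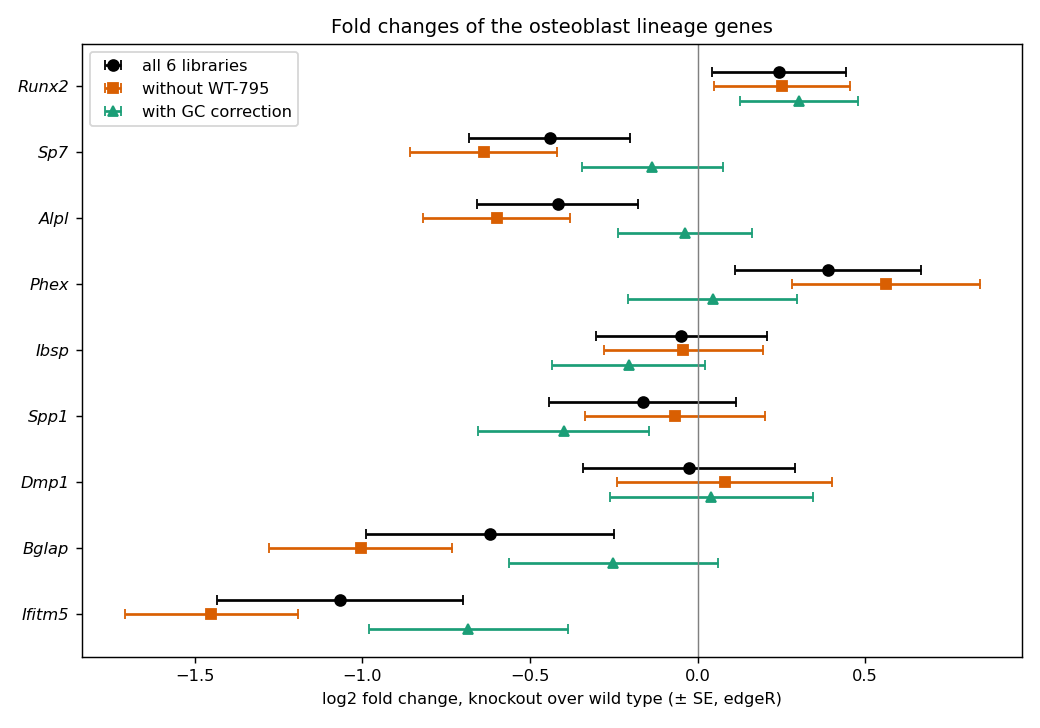
Log2 fold change of knockout over wild type with its SE from edgeR (x axis) for each member (y axis), with all 6 libraries (black), without WT-795 (orange) and with the GC correction (green). Ifitm5 is lowest in all 3, at -1.07, -1.45 and -0.68, while Sp7, Alpl, Bglap and Phex lie closer to 0 with the correction.

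Other genes of the osteoblast programme were read from lists written with earlier results of these data known. None of their genes passed by edgeR, and at an unadjusted p under 0.05 there were 2 of 12 for bone matrix, 3 of 12 for mineral handling, 0 of 13 for transcription factors, 1 of 9 for osteocytes and 1 of 15 for signals, against 10.5% of all genes. Among 12 tested genes of bone matrix besides the members, 10 lay below 0, with a median log2 fold change of -0.34, against 0.011 for all genes. Sparc, which encodes osteonectin, was at 3177, 4555 and 3836 CPM in knockout, against 7928, 7406 and 3947 CPM in wild type, a log2 fold change of -0.74 (edgeR adjusted p = 0.461). Serpinh1, a chaperone of procollagen, was at -0.63 and Col1a1, a chain of type I collagen, at -0.58. For each of these WT-795 lay inside the knockout range, as it did for Ifitm5. Without WT-795, 3 genes of this list passed, all lower in knockout, against 5.73% of all genes lower. They were Sparc, Serpinh1 and Bglap2 (edgeR adjusted p = 0.0220, 0.0269 and 0.0316), and Bglap2 cannot be separated from the member Bglap. With the GC correction none passed and the median was -0.17.

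Genes that handle phosphate, pyrophosphate and mineral had 9 of 12 below 0 and a median of -0.19. The annexins Anxa2, Anxa5 and Anxa6, calcium-binding proteins found in matrix vesicles, were at -0.76, -0.63 and -0.60 (edgeR adjusted p = 0.459 for each). All 3 passed without WT-795, lower in knockout, the 3 of 12 in this list to do so against 5.73% of all genes (edgeR adjusted p = 0.0146, 0.0233 and 0.0344), and none with the GC correction. Nt5e, the ectonucleotidase CD73, was at 0.42.

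Transcription factors and co-regulators of osteoblasts had 7 of 13 below 0 and a median of -0.13. Dlx5, a homeobox factor of osteoblasts, was at -0.43 and Sp3, a relative of Sp7, at 0.31. Osteocyte genes other than the members had 6 of 9 below 0 and a median of -0.084. The 4 with the smallest unadjusted p were the WNT inhibitor Dkk1 at 0.73, Pdpn, a membrane protein of young osteocytes, at 0.41, Cd44 at 0.32 and Fbln7 at -0.40. None passed (edgeR adjusted p = 0.466, 0.483, 0.538 and 0.594). Pdpn was at 34.3, 44.5 and 36.5 CPM in knockout, against 25.7, 27.7 and 33.5 CPM in wild type, and its groups did not overlap, 1 of 9 osteocyte genes against 11.9% of all genes. Genes of signals that act on osteoblasts had 8 of 15 above 0 and a median of 0.066. Pth1r, the receptor for parathyroid hormone and its relative, was at -0.60, and Bmpr1a, a BMP receptor, at 0.47. Without WT-795, Pth1r was lower and Bmpr1a higher past the threshold (edgeR adjusted p = 0.0269 and 0.0474), 2 of 15 in this list against 9.08% of all genes.

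**Figure D5:**
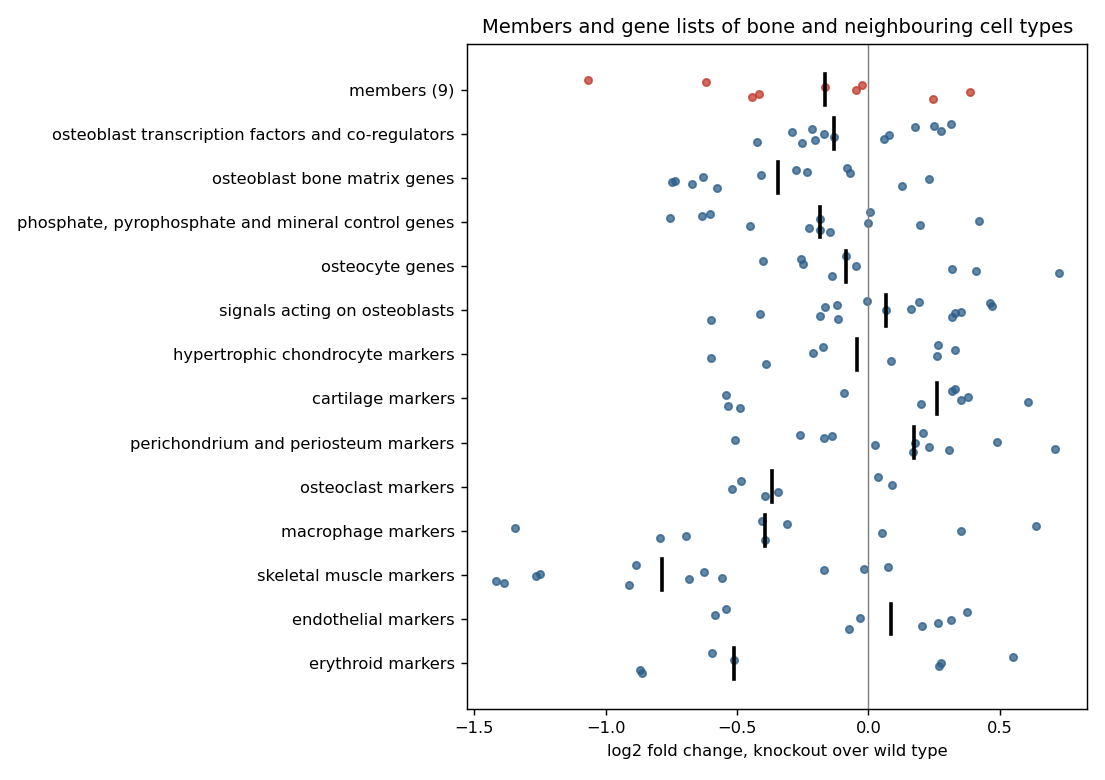
Log2 fold change of knockout over wild type (x axis) for the 9 members (red) and the tested genes of each list (blue), 1 point per gene, with black bars at the medians. The members' median is -0.16, bone matrix genes lie at -0.34 and skeletal muscle markers lowest at -0.78.

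Markers of cells that share these genes or lie beside the perichondrium were measured in the same libraries. Hypertrophic chondrocyte markers summed to 992 to 1075 CPM in knockout and 772 to 1027 CPM in wild type, with 4 of 8 below 0 and a median of -0.043. Most of this sum was Mef2c and Sgms2, at log2 fold changes of 0.33 and 0.27, while Col10a1 was at -0.39. Col10a1, the defining collagen of hypertrophic chondrocytes, was at 18.8, 32.7 and 31.5 CPM in knockout, against 45.9, 17.9 and 45.2 CPM in wild type. It was highest in WT-596, as Ifitm5 was, and lowest in WT-597, where Ifitm5 was second highest. Cartilage markers summed to 2962 to 3015 CPM in knockout and 2054 to 3339 CPM in wild type, with 6 of 10 above 0 and a median of 0.26. Most of this sum was Col11a1, at 2714, 2654 and 2594 CPM in knockout, against 1707, 1818 and 2853 CPM in wild type. Its log2 fold change was 0.32, while Acan, Col2a1 and Col9a2, among the 4 of 10 below 0, were at -0.54, -0.49 and -0.54. Perichondrium and periosteum markers had 8 of 12 above 0 and a median of 0.17.

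Osteoclast markers summed to 212, 282 and 278 CPM in knockout, against 405, 308 and 266 CPM in wild type, with 4 of 6 tested below 0 and a median of -0.37. Macrophage markers summed to 222 to 232 CPM in knockout and 190.4 to 317 CPM in wild type, with 6 of 9 below 0 and a median of -0.39. Skeletal muscle markers summed to 2425, 4788 and 4420 CPM in knockout, against 4284, 10520 and 3224 CPM in wild type, with 11 of 12 below 0 and a median of -0.78. Endothelial markers had 4 of 8 below 0 and a median of 0.084, and erythroid markers 4 of 7 below 0 and a median of -0.51. None of these markers passed by edgeR. At an unadjusted p under 0.05 there were 4 of 12 for muscle, 4 of 9 for macrophages, 2 of 12 for perichondrium, 1 of 8 for hypertrophic chondrocytes, 1 of 10 for cartilage, 1 of 8 for endothelium, 0 of 6 for osteoclasts and 0 of 7 for erythroid cells, against 10.5% of all genes. Without WT-795, 6 of 12 muscle markers passed, all lower in knockout, and 4 of 9 macrophage markers, 3 lower and 1 higher, against 9.08% of all genes. In the same fit 2 of 12 perichondrium markers and 1 of 10 cartilage markers passed, higher in knockout, 1 of 8 hypertrophic markers, lower, and 0 osteoclast, endothelial or erythroid markers. The hypertrophic marker was Pth1r in both counts, the same gene already counted among the signals that act on osteoblasts. No marker of these 8 lists was at 0 in every library. With the muscle markers as a covariate Ifitm5 was at -0.73 and Bglap at -0.42, with the cartilage markers at -0.87 and -0.45, and no member passed in either fit. The part of other cells in the members' values was otherwise not tested.

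The genes closest to the members' mean profile were in none of the gene lists. By the smallest root mean square difference of centred log2 CPM over the 6 libraries, among 7604 other genes, they were Arf5 (0.0428), Tm2d2 (0.0554), Cd82 (0.0569), Trim35 (0.0580) and Afg3l2 (0.0642). The members themselves lay further from their own mean, between 0.170 for Ibsp and 0.568 for Ifitm5, and the median of the other genes was 0.365.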

How the data were processed

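The values are the authors' deposited raw counts, whole numbers with 1 row per gene and 1 column per library. Per the labels' protocols RNA came from a micro-scale column kit and libraries from full-length amplified cDNA cut by a transposase, a chemistry that does not mark strand. The submitters' processing notes name GRCm38.p6 and DESeq2. Per the file headers, the column names carry the ending of alignment files that STAR writes and the word star; its settings, the strand setting and the treatment of multiply matching reads were not found. The authors' deposited table gives log2 fold changes, of which 1271 of 1643 equalled those of a DESeq2 fit within 1e-04, and its other columns were not used. Reads carry no molecular identifiers.

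Symbols, positions, exon lengths and GC content came from GENCODE M21. The test was edgeR 4.0.16 (quasi-likelihood, TMM, filterByExpr, no covariates) in R 4.3.3, two-sided, with Benjamini-Hochberg adjustment over all 15712 genes and a threshold of 0.05. Log2 CPM used a prior count of 2. The GC correction fitted a spline with 5 degrees of freedom to each library's log2 CPM deviations. The scripts were tested on simulated counts of 15482 genes with 1 spread for all genes. There edgeR recovered 30% of 50 genes changed 2-fold and 94% of 50 changed 4-fold, with 8 false calls. These counts had no trend with GC content, so they do not give the power in the real libraries. DESeq2 1.42.0 and limma 3.58.1 served as alternatives.

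The members and the 13 gene lists were chosen with earlier results of these data known. Named were the members, Fbn1, the Bglap copies, up to 4 genes per list with the smallest unadjusted p, and the 5 genes nearest the members' mean profile above a mean log2 CPM of 3.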

Additional observations from a re-analysis of the deposited data

How the results depend on the processing

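Of 189 values of the 9 members under 21 alternatives, 172 kept their direction and side of the threshold, 3 newly passed and 14 changed sign, and Runx2, Sp7, Alpl, Bglap and Ifitm5 kept their sign in all. Summing the Bglap copies, 1 of the 21, could hardly move members besides Bglap, so their values there are no separate check. The filter planned as stricter kept 16216 genes, more than the 15712 of the one used, so none was stricter. With no filter 270 genes and 1 member passed, Ifitm5 at -1.09. Dmp1 changed sign in 8 of the 21 alternatives. These were limma-voom sample weights (0.20), the GC correction (0.041), the Xist covariate (0.32), the muscle covariate (0.12) and the GC correction without WT-795 (0.22). The others left out mut-596 (0.29), WT-597 (0.017) or WT-795 (0.081). With the Xist covariate, which leaves mut-795 as the knockout library compared, Ibsp and Spp1 were at 0.084 and 0.11. Alpl and Bglap lay lower than in the main fit, at -0.80 and -0.855. Sp7, Ifitm5 and Runx2 were at -0.39, -1.07 and 0.18 there. Leaving out 1 library at a time gave 1 to 1517 genes past the threshold, 0 to 2 members, and log2 fold changes of -1.45 to -0.74 for Ifitm5, -1.005 to -0.14 for Bglap, 0.19 to 0.58 for Phex, -0.25 to 0.29 for Dmp1, -0.15 to 0.073 for Ibsp and -0.33 to 0.069 for Spp1. Without mut-795, 12 genes passed, and with the GC correction without WT-795, chosen after the data were seen, 105 genes and 0 members. DESeq2 and limma-voom called 1 gene each and 0 members (1 member at an unadjusted p under 0.05 by DESeq2, limma-voom and edgeR alike), and limma-voom with sample weights 1 gene and 0 members, with 5 members and 3965 genes at an unadjusted p under 0.05. The cause of these shifts was not tested.

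What the numbers shared between the groups mark is not known. The deviations from the group means correlated at -0.177 for mut-596 with WT-596, 0.244 for mut-597 with WT-597 and -0.201 for mut-795 with WT-795. Library mut-597 correlated best with its own number, while mut-596 did so with WT-795 (0.38) and mut-795 with WT-596 (0.165). Deviations within a group cancel, so these correlations constrain one another. They cannot tell whether a number marks a shared litter or batch. With the number as a replicate block 1 gene and 0 members passed, with Ifitm5 at -0.94 (edgeR adjusted p = 0.528), and with the GC correction with replicate block 4 genes and 0 members, with Phex at -0.000796. Phex had some of the lowest counts, 105 to 216 per library in knockout, and its SE of 0.278 was close to the 0.279 of Spp1, with 3643 to 9141 counts. The lowest count of a member in any library was 101, for Bglap in WT-795. How far depth limits the members was not tested.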
